A study of Oryza sativa with 4 samples.

Results

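The florigen gene *Hd3a* and 4 floral MADS-box genes, *MADS14*, *MADS15*, *OsMADS18* and *OsMADS1*, were followed in rice leaves of both genotypes and both day lengths. The genes were taken by name, and each probe set that the platform's table gives to one of them was used. A probe set is a group of short probes for 1 transcript, and its signal is a linear intensity with no unit. These 5 genes, of 17905 that the table names, hold 11 of the 57194 probe sets that are not controls. None of the 11 is also given to another gene. *MADS14* and *MADS15* have 4 probe sets each, and *Hd3a*, *OsMADS18* and *OsMADS1* have 1 each.

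The series compared the wild type Zhonghua11, a japonica cultivar, with *hd1–3*, a photoperiod-insensitive mutant that carries several deletions and insertions in *Hd1* and no other stated allele. Each genotype was measured on 1 Affymetrix array under short-day (SD) condition, with 11.5 h of light and 12.5 h of dark, and on 1 under long-day (LD) condition, with 15 h of light and 9 h of dark. All 4 groups were grown at 28 °C for 30 days from seedlings of 5 days, and leaves were taken at 35 days of age. SD leaves were taken 3 h and LD leaves 5 h after light, so day length and hours after light cannot be told apart. No source used here says whether an array holds 1 plant or a pool. *hd1–3* is a single mutant line, and what else differs between it and Zhonghua11 is not stated either.

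In rice, Hd3a protein is made in leaves, moves through the phloem to the shoot apex, and there joins 14-3-3 proteins and the bZIP factor FD1 in a complex that turns on genes of floral identity. *MADS14*, *MADS15* and *OsMADS18* belong to the AP1/FUL-like group of MADS-box factors, which act at the change from leaf to inflorescence production and in the identity of the floral meristem. *OsMADS1* is a SEPALLATA-like gene needed for lemma and palea, the outer organs of the rice floret. *Hd1*, the gene altered in the mutant, is known as a regulator of *Hd3a* that promotes heading under SD condition and delays it under LD condition.

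Leaf genes gave high signals, and most meristem genes did not reach 100. Of 4 leaf markers, 3 were at 100 or more on all 4 arrays, and their summed signal was 119954 to 135028. Of 6 shoot apical meristem genes, 5 had no array at 100, and *FON1*, a receptor kinase gene, made up most of the sums, which were 1323 and 1324 (wild type, *hd1–3*) on the SD arrays and 788 and 946 on the LD arrays. Of 3 panicle meristem genes, *APO2* and *FZP* had no array at 100 and *LAX1* had 1, in wild type under LD condition at 126. *Hd1* itself had signals of 142, 60.5, 89.3 and 5.40, in the order SD wild type, SD *hd1–3*, LD wild type and LD *hd1–3*, which is kept throughout for runs of 4 values; in pairs the wild type comes first. Its limma difference between genotypes was -2.51 (SE 1.12, Benjamini-Hochberg adjusted p = 0.429). The 3′ over 5′ ratio of a GAPDH control pair was 1.64, 4.16, 1.48 and 4.25, while the actin, cyclophilin and ubiquitin pairs differed by at most 1.24-fold between genotypes. The ratio of the actin pair was itself high, at 4.46, 3.75, 3.62 and 2.92, and lower on the LD array of each genotype. The part of these GAPDH and actin differences in the results below was not tested.

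The *Hd3a* signal of *hd1–3* exceeded that of wild type under both SD and LD. The probe set, Os.13026.1.S1_at (gene on chromosome 6), had signals of 295 and 1116 under SD condition and of 4.70 and 700 under LD condition. Both *hd1–3* arrays lay above both wild type arrays, and the LD wild type array was far below the other 3. Under SD condition the signal in *hd1–3* was 3.77-fold that of wild type (1.92 on the log2 scale). Under LD condition, with the wild type signal raised to a floor of 100, it was at least 7.0-fold higher. This floor is a choice made here, since the table holds no detection calls. The log2 fold under LD was 2.81 with the floor and 6.94 without it, the latter against the signal of 4.70. Among all probe sets of similar mean signal, a log2 genotype fold varied by 0.374 between day lengths, and the SD fold exceeded that spread. For the LD fold this spread is too small a measure, since the wild type signal was 4.70. At mean signals under 50 the spread was 1.61. A difference between the SD and LD folds could not be tested with 4 arrays. The paper describes *Hd1* as a positive regulator of *Hd3a* under SD, whereas the *hd1–3* mutant had the higher SD signal here. The reason was not tested.

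**Figure D1:**
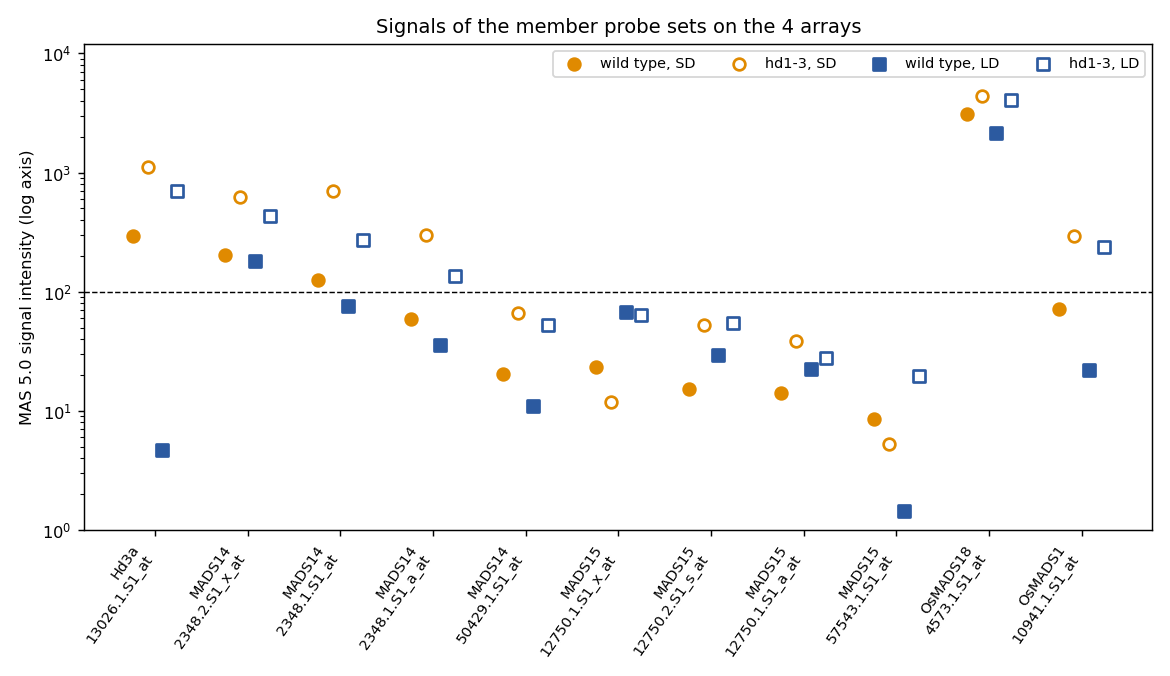
Signal intensity (log axis) of each of the 11 probe sets of the 5 genes on the 4 arrays, 1 point per array, with filled points for wild type, open points for *hd1–3*, circles for SD and squares for LD; the dashed line is a signal of 100. Open points lie above filled points of the same day length for *Hd3a*, *MADS14*, *OsMADS18* and *OsMADS1*, and the LD wild type point of *Hd3a* is at 4.70, while all 4 probe sets of *MADS15* stay under 100.

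All 4 probe sets of *MADS14*, an AP1/FUL-like gene on chromosome 3, had higher signals in *hd1–3*, under SD as under LD, though 1 of them stayed under 100. The probe set with the highest mean signal of the 4, Os.2348.2.S1_x_at, had signals of 205 and 618 under SD condition and of 183 and 429 under LD condition. The folds were 3.01 and 2.34, and the 2 genotypes did not overlap. The suffix "x" marks a probe set in which some probes may also match other transcripts.

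Os.2348.1.S1_at had signals of 126 and 700 under SD condition and of 76.3 and 271 under LD condition. *hd1–3* was 5.53-fold higher on the SD arrays and at least 2.71-fold higher on the LD arrays. Os.2348.1.S1_a_at was made from the same source sequence, so it is not an independent measure, and had signals of 59.1, 302, 35.9 and 137. The *hd1–3* arrays were the only ones above 100 on this probe set, with bounds of at least 3.02-fold and at least 1.37-fold. The last, Os.50429.1.S1_at, was under 100 on every array, with 20.5, 66.4, 11.1 and 52.7, and its order of the arrays by genotype was that of the other 3. With the floor, the log2 folds of the 3 brighter probe sets ranged from 1.59 to 2.48 on the SD arrays and from 0.45 to 1.44 on the LD arrays.

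*MADS15*, the other AP1/FUL-like gene known to act with *MADS14*, did not reach a signal of 100 in these leaves. That held for all of its 4 probe sets (gene on chromosome 7) and all arrays, so no fold is given a bound and none was tested. Os.12750.2.S1_s_at had signals of 15.3, 52.4, 29.6 and 54.4, and Os.12750.1.S1_a_at had 14.2, 38.7, 22.4 and 28.0. These 2 probe sets were higher in *hd1–3* in both day lengths. Os.12750.1.S1_x_at had 23.5, 11.8, 67.8 and 63.8, and Os.57543.1.S1_at had 8.52, 5.32, 1.46 and 19.7. On the former both *hd1–3* signals were the lower ones, and on the latter the direction turned with day length. The 4 log2 genotype folds ran from -0.93 to 1.71 on the SD arrays and from -0.09 to 3.07 on the LD arrays, against a spread of 1.61 among all probe sets with mean signals under 50. The 4 probe sets of this gene thus differed in direction, where those of *MADS14* did not. At such dim signals direction cannot show whether the probe sets disagree. Os.12750.1.S1_x_at and Os.12750.1.S1_a_at, which ran in opposite directions, were made from the same source sequence.

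*OsMADS18*, the third AP1/FUL-like gene, was far above 100 on every array and had smaller folds. Its probe set, Os.4573.1.S1_at (gene on chromosome 7), had signals of 3115 and 4370 under SD condition and of 2162 and 4094 under LD condition. Both *hd1–3* signals were above both wild type signals, with folds of 1.40 and 1.89. On the log2 scale these were 0.49 and 0.92, which exceeded the spread of 0.294 at that signal but stayed under 2-fold.

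*OsMADS1*, the SEPALLATA-like gene on chromosome 3, was above 100 only in *hd1–3*. Os.10941.1.S1_at had signals of 71.7 and 296 under SD condition and of 21.9 and 237 under LD condition. On the SD arrays *hd1–3* was at least 2.96-fold higher, and on the LD arrays at least 2.37-fold higher. On the log2 scale these bounds were 1.57 and 1.25.

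With signals under 100 raised to 100, 5 of the 11 probe sets were more than 2-fold higher in *hd1–3* under SD and 4 under LD, beside 0.899% and 0.734% of all 57194. The 4 were so in both day lengths, as were 0.334% of all, and are those of *Hd3a* and *OsMADS1* and the first 2 described for *MADS14*. Of the 11, 6 are among the 28133 probe sets with an array at 100 or more. On these 6 both *hd1–3* signals were above both wild type signals, as for 13.5% of the 28133. *OsMADS1* and Os.2348.1.S1_a_at reached 100 only in *hd1–3*, so that genotype alone brought them into the filter, and counts over the 6 are a description. Since RNA of whole leaves was measured, more cells that express a gene and more RNA per cell cannot be told apart.

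**Figure D2:**
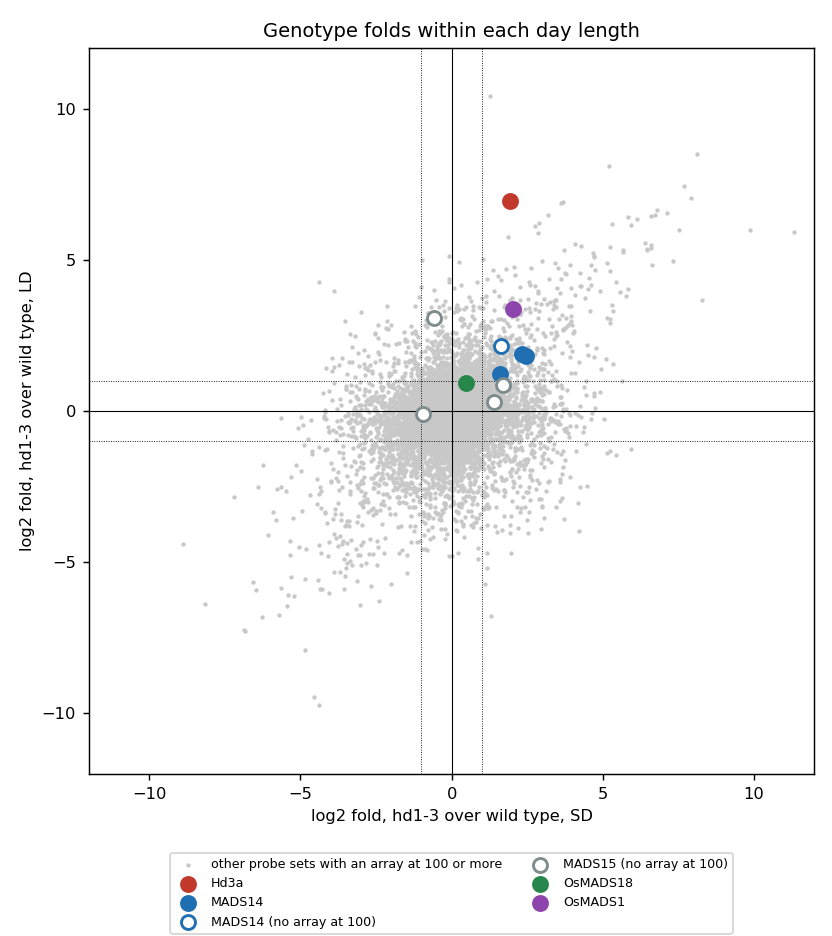
Log2 fold of *hd1–3* over wild type under SD (horizontal axis) and LD (vertical axis) for all probe sets with an array at 100 or more (grey) and the 11 probe sets of the 5 genes (coloured, open where no array reached 100); dotted lines mark 2-fold, and no floor was applied. *Hd3a* sits at 1.92 and 6.94, the latter against a wild type signal of 4.70, the *MADS14* probe sets lie together, and the *MADS15* points are scattered.

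The arrays have no replicates within a group, so limma was fitted over all 4 with genotype and day length as terms, which leaves 1 residual degree of freedom and takes most of its error estimate from other probe sets. That degree of freedom is the difference between the SD and LD genotype folds. Such p-values measure spread by it and by other probe sets, not by repeated plants or arrays. For *Hd3a* the folds of 1.92 and 6.94 were averaged, and their gap counts as error. For genotype, 2.07% of the 28133 probe sets passed an adjusted p of 0.05, with 1.09% higher and 0.985% lower in *hd1–3*. Of the 6 probe sets tested here, 5 passed, all higher in *hd1–3*, a count that the filter partly sets. The 4 that also reached 100 on a wild type array all passed.

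*Hd3a* rose by 4.43 on the log2 scale (SE 0.874, limma adjusted p = 0.0342), a size that rests on the signal of 4.70 and was 3.07 with 32 added in place of 1 (adjusted p = 0.00731). *MADS14* rose by 1.41 on Os.2348.2.S1_x_at (SE 0.230, adjusted p = 0.0133) and by 2.14 on Os.2348.1.S1_at (SE 0.294, adjusted p = 0.00484). On Os.2348.1.S1_a_at the difference was 2.12 (SE 0.492, adjusted p = 0.0720), which did not pass. *OsMADS18* rose by 0.70 (SE 0.148, adjusted p = 0.0467). The difference of *OsMADS1* was 2.71 (SE 0.511, adjusted p = 0.0277). Since both of its wild type signals were under 100 and it was tested only for its *hd1–3* signals, that p is not free of the filter, and its size is known only by the bounds above.

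These calls rest on few arrays. All were lost when an array was left out, except that of *Hd3a* without the SD wild type array. The day length term was then also left out of the fit. That *Hd3a* difference, 7.28, rests on the lone LD wild type signal of 4.70 and mixes genotype with day length. Without the LD wild type array the difference of *Hd3a* was 1.58. The calls of *Hd3a* and *OsMADS18* were also lost after quantile normalization (adjusted p = 0.0632 and 0.0678), and that of *Hd3a* with a robust prior variance, a setting chosen after the data were seen (adjusted p = 0.669).

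**Figure D3:**
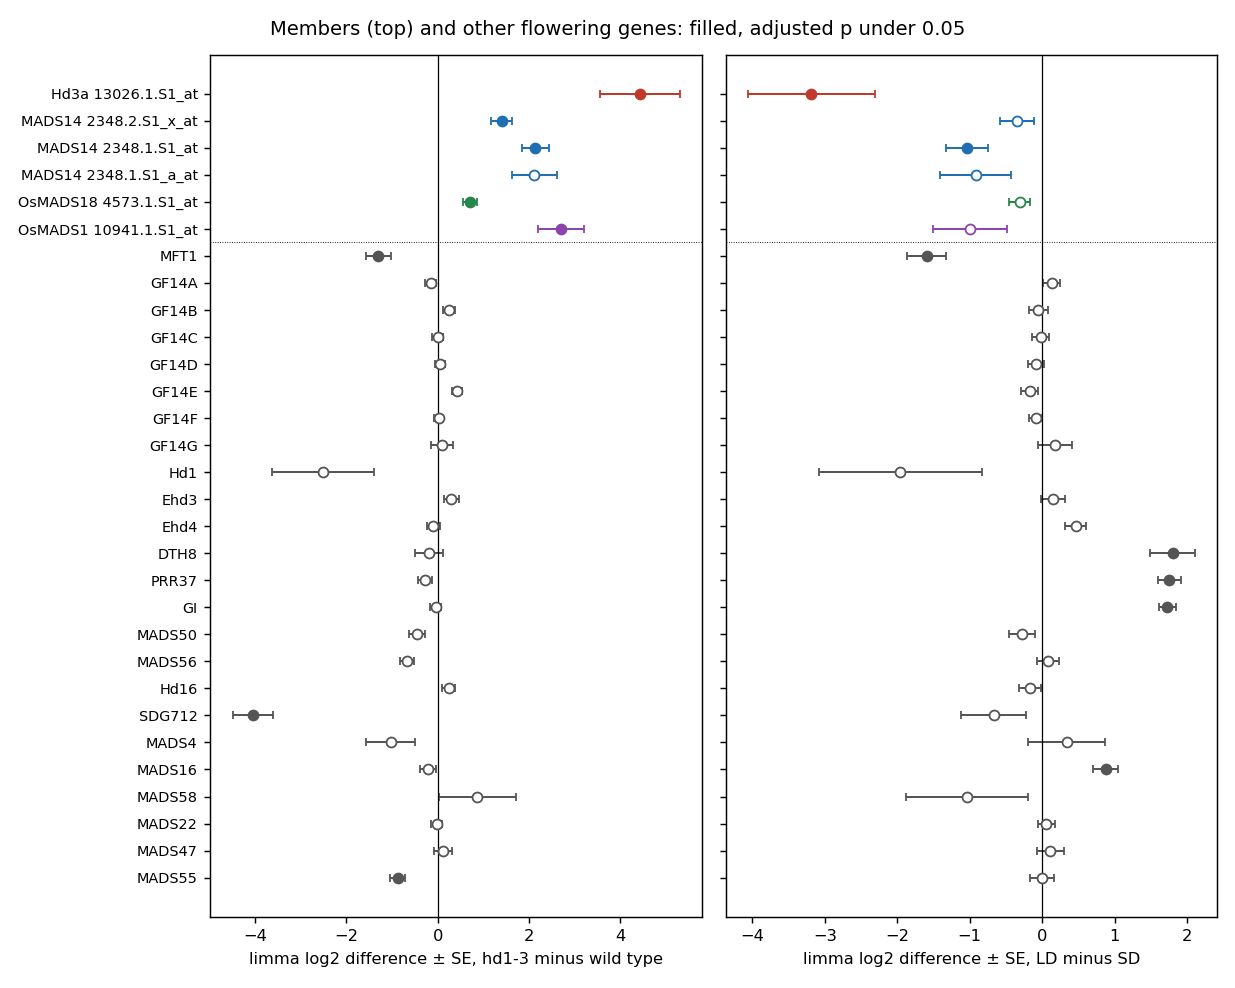
Limma log2 difference with its standard error for the 6 tested probe sets of *Hd3a*, *MADS14*, *OsMADS18* and *OsMADS1* (coloured, top) and for the tested genes of the other flowering lists (grey), *hd1–3* minus wild type on the left and LD minus SD on the right; filled points have an adjusted p under 0.05. For genotype *Hd3a* is at 4.43 and 5 of its 6 top points are filled, and for day length *Hd3a* is at -3.19 and 2 are filled.

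Between day lengths, *Hd3a* differed more than 2-fold in wild type. Its wild type signals were 295 under SD and 4.70 under LD, which with the floor of 100 is at least 2.95-fold lower. In *hd1–3* the signals were 1116 and 700, a 1.59-fold lower value under LD condition. On the log2 scale the wild type value was -1.56 with the floor and -5.70 without it, and that of *hd1–3* was -0.67. The difference between the genotypes could not be tested.

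The tested probe sets of the MADS-box genes also had lower signals under LD in both genotypes. *MADS14* was lower on all 4 of its probe sets, with no floor by 0.16 to 0.83 on the log2 scale in wild type and by 0.33 to 1.37 in *hd1–3*. Os.2348.2.S1_x_at, at -0.16 and -0.53, stayed within the spread of 0.597 at its signal. Os.2348.1.S1_at and Os.2348.1.S1_a_at exceeded that spread in both genotypes with no floor, and in *hd1–3* alone with the floor. *OsMADS18* had log2 values of -0.53 in wild type and -0.09 in *hd1–3*, the second within its spread of 0.294. *OsMADS1* had -1.67 and -0.32, but both of its wild type signals were under 100, so no bound is given for the first. The second was within the spread of 0.597. Of the 4 *MADS15* probe sets, 3 had the higher wild type signal on the LD array and 3 the higher *hd1–3* signal, all under 100.

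Of the 28133 probe sets, 30.7% were lower under LD condition in both genotypes, and so were all 6 tested here, by any size. With the floor, *Hd3a* was more than 2-fold lower in wild type (1 of 11, beside 1.56% of all 57194), and Os.2348.1.S1_at and Os.2348.1.S1_a_at of *MADS14* were in *hd1–3* (2 of 11, beside 1.54%). No probe set of the 5 genes (0 of 11) had both SD signals above both LD signals, which 23.6% of the 28133 had. In limma, 13.6% of the 28133 probe sets passed for day length, with 7.09% higher and 6.53% lower under LD, and 2 of the 6 passed, both lower. *Hd3a* fell by 3.19 (SE 0.874, adjusted p = 0.0411), or by 1.90 with 32 added (adjusted p = 0.0232), and Os.2348.1.S1_at of *MADS14* fell by 1.04 (SE 0.294, adjusted p = 0.0465). The values of the others were -0.35 and -0.92 for the remaining *MADS14* probe sets, -0.31 for *OsMADS18* and -0.99 for *OsMADS1*, with adjusted p between 0.217 and 0.382.

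Neither day length call held for each array left out. Such fits had day length as their only term and set a lone array of a single genotype against arrays of both. Genotype is thus mixed into their differences, and a change of sign in them is not one within a genotype. Without the LD wild type array the *Hd3a* difference was 0.29 in place of -3.19, while *hd1–3* itself was at -0.67. Without the SD *hd1–3* array the difference of Os.2348.1.S1_at was 0.20. Within each genotype all 6 tested probe sets were lower under LD. The *Hd3a* difference without the LD *hd1–3* array was -6.66, which rests on the lone LD wild type signal of 4.70. Quantile normalization gave the call of *Hd3a* a limma adjusted p of 0.0564.

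**Figure D4:**
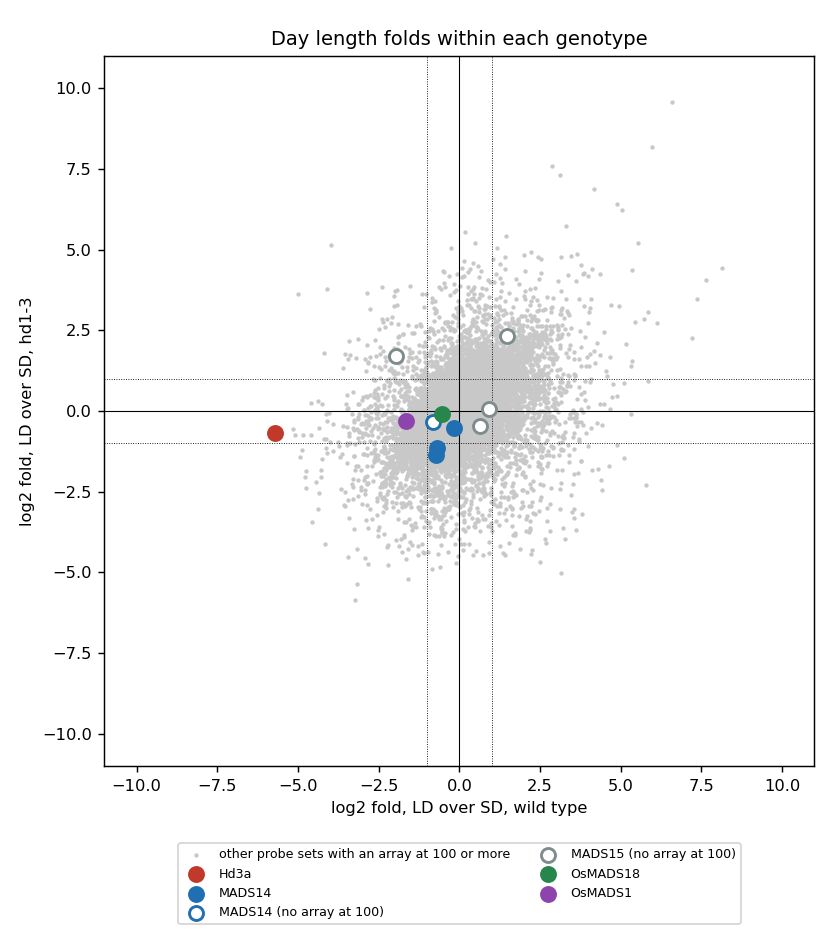
Log2 fold of LD over SD in wild type (horizontal axis) and in *hd1–3* (vertical axis) for all probe sets with an array at 100 or more (grey) and the 11 probe sets of the 5 genes (coloured, open where no array reached 100); dotted lines mark 2-fold. *Hd3a* is at -5.70 and -0.67, the former from an LD signal of 4.70, and the filled MADS-box points are all below 0 on both axes.

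Other genes of the pathway were read from lists that hold the partners, regulators and relatives of these 5 genes, each gene by its probe set with the highest mean signal. Of the other PEBP genes, the family of *Hd3a*, 2 were measured. *MFT1*, related to the Arabidopsis gene MOTHER OF FT AND TFL1, had signals of 912, 540, 441 and 121. It went the opposite way to *Hd3a* between genotypes, falling by 1.31 in *hd1–3* (SE 0.272, limma adjusted p = 0.0447), and was also lower under LD condition (-1.60, adjusted p = 0.00469). Its genotype call was lost with each array left out (-2.38 to -0.23), with the filter at 500 (adjusted p = 0.111), with no day length term (adjusted p = 1.0), after quantile normalization (-1.24, adjusted p = 0.0730) and with the robust prior (adjusted p = 0.0597), and its day length call without 3 of the 4 arrays. *MFT2* had no array at 100.

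The 14-3-3 genes, whose proteins bind Hd3a, did not pass in limma for genotype or for day length in any of 7 cases, and all had signals over 100 on every array. Their genotype differences had a median of 0.05, beside -0.02 over all probe sets tested. Without adjustment 1 of the 7 reached a p of 0.05 for genotype and 0 for day length, beside 11.7% and 27.0% of all probe sets tested. The 1 was *GF14E*, with 0.42 on the log2 scale (adjusted p = 0.139). *GF14F* had signals from 22892 to 24772 and a genotype difference of 0.02, and *GF14G* had the day length difference farthest from 0, at 0.18 (adjusted p = 0.683). The genes for FD proteins were not analysed here.

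Of 11 measured regulators that act before the florigens, 10 were tested, and 1 passed for genotype (beside 2.07% of all), *SDG712*, a histone methyltransferase gene of the SET domain group. The paper had picked *SDG712* from these same arrays for its large change between genotypes in both day lengths. Its call was thus set by how it was chosen, and the genotype counts and median of the 10 below include it. No other tested regulator passed for genotype. Its signals were 704, 86.9, 912 and 25.8, and it fell by 4.05 (SE 0.444, adjusted p = 0.00120), with low signals on both *hd1–3* arrays. Without the SD wild type, LD wild type or LD *hd1–3* array its adjusted p was 0.221, 0.291 and 0.0528, and with no day length term 0.173, while without the SD *hd1–3* array the call was kept (-4.90, adjusted p = 0.0272). The median genotype difference of the 10 was -0.23, with 8 lower and 2 higher in *hd1–3*. Without adjustment 3 of the 10 reached a p of 0.05 in limma, beside 11.7% of all probe sets tested. Besides *SDG712* these were *MADS56* (-0.67, adjusted p = 0.0607) and *MADS50* (-0.46, adjusted p = 0.334), both lower in *hd1–3*. For day length 3 of the 10 passed, all higher under LD, beside 13.6% and 7.09% (higher) of all probe sets tested. These were *GI*, a clock-associated gene (1.73, adjusted p = 7.07e-05), *PRR37*, a pseudo-response regulator gene (1.76, adjusted p = 0.000206), and *DTH8*, a subunit of a CCAAT-binding factor (1.80, adjusted p = 0.00501). *PRR37* and *DTH8* are known to delay heading under LD condition. With each array left out *GI* and *PRR37* kept their calls, and *DTH8* lost its call each time (adjusted p from 0.0676 to 0.145). The median day length difference of the 10 was 0.12, beside 0.05 over all probe sets tested.

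No other listed MADS-box gene passed as higher in *hd1–3*, a call that 1.09% of all probe sets tested had. Few of them were tested, so this does not set the 5 genes apart from them. None of the 5 further SEPALLATA-like and AP1/FUL-like genes reached 100 on any array. Among them *MADS8* came nearest, at 98.7 in wild type under LD condition, and *MADS34*, the gene next to *MADS14* on the chromosome, stayed at or under 17.4. Of 11 measured floral organ genes of other classes, 3 were tested. None passed for genotype (0 of 3, also without adjustment, beside 2.07% and 11.7% of all probe sets tested), at a median of -0.21. *MADS4*, a PISTILLATA-like gene, had -1.03 (adjusted p = 0.520) and *MADS58*, a C-class gene, 0.86 (adjusted p = 0.759). For day length 1 of the 3 passed, beside 13.6% of all probe sets tested. *MADS16*, a gene for lodicule and stamen identity, was higher under LD condition by 0.88 (adjusted p = 0.00948), a call lost with each array left out (adjusted p from 0.109 to 0.204).

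The SVP-like genes *MADS22*, *MADS47* and *MADS55*, of a group that in Arabidopsis holds repressors of flowering, were all tested. Of these 3, 1 passed for genotype and 0 for day length, beside 2.07% and 13.6% of all probe sets tested. *MADS55* had signals of 1318, 757, 1392 and 718, lower on both *hd1–3* arrays, and fell by 0.88 (SE 0.164, adjusted p = 0.0268). Its difference was -0.92 to -0.84 with each array left out, and the call was lost each time. *MADS22* had a difference of -0.03 with signals from 6588 to 7175, and *MADS47* one of 0.12.

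*Hd3a* lies on the chromosome that also carries *Hd1*, so the genes around each of the 5 were read as well, 5 measured genes on either side in the order of the RefSeq annotation. Around *Hd3a*, 8 of 10 were tested and 1 passed, the gene LOC4340178 at the fifth place, with signals of 203, 558, 200 and 566. It rose by 1.48 (SE 0.217, adjusted p = 0.00739), and its day length difference was -0.00079. No tested gene between it and *Hd3a* passed. At an unadjusted limma p under 0.05 there were 2 of the 8, beside 11.7% of all probe sets tested. The other was LOC4340183, the measured gene just before *Hd3a* (0.26, adjusted p = 0.414). It was also lower under LD (-1.16, limma adjusted p = 0.000283). Around *MADS14*, *MADS15*, *OsMADS18* and *OsMADS1*, 9, 7, 9 and 7 neighbours were tested and none passed in limma (0 of 32, with 7 at an unadjusted p under 0.05, beside 2.07% and 11.7% of all probe sets tested), with differences from -0.83 to 0.65. The gene next to *OsMADS18*, LOC4343849, had 0.65 (SE 0.155, limma adjusted p = 0.0808), close to the 0.70 (SE 0.148) of *OsMADS18* itself. By chromosome, 4.49% of the probe sets tested on chromosome 6 and 5.26% on chromosome 11 passed for genotype, beside 0.993% to 2.26% on the others.

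**Figure D5:**
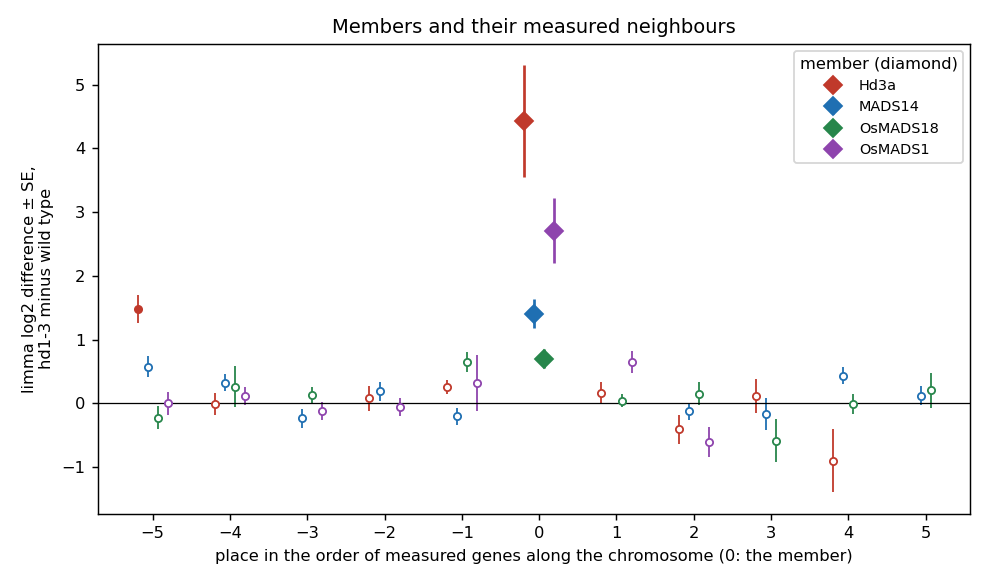
Limma log2 difference with its standard error, *hd1–3* minus wild type, for *Hd3a*, *MADS14* (Os.2348.2.S1_x_at), *OsMADS18* and *OsMADS1* (diamonds) and for the tested genes among the 5 measured on either side (circles, filled where the adjusted p is under 0.05). Each diamond lies above its own neighbours, though that of *OsMADS18*, at 0.70, is within the standard error of the gene next to it, at 0.65. The 1 filled circle, 5 places before *Hd3a*, is at 1.48.

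The genes with the pattern most like each of these were found by the distance between log2 signals over the 4 arrays, each centred on its mean, where 0 is the same pattern. Over 4 arrays such likeness is a description. For *Hd3a* the nearest of 17741 probe sets were LOC4350155 at 1.88 and LOC4350994 at 2.04, both on chromosome 11, and LOC4334260 at 2.58. All 4 genes had LD wild type signals far under 100, so these distances rest on dim values. LOC4350155 had signals of 30.3, 228, 2.64 and 214, and like *Hd3a* it was lowest in wild type under LD condition. *OsMADS1* was at 3.34 from *Hd3a*, *MADS14* at 4.23 to 4.94 and *OsMADS18* at 5.24.

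The MADS-box genes had neighbours at smaller distances. The distance is not scaled and grows with the size of the folds, of which *Hd3a* had the largest, so it does not compare closeness of pattern between these genes. The 3 nearest to *MADS14* by Os.2348.2.S1_x_at, LOC4340877 at 0.0883, LOC4342133 at 0.105 and LOC4340895 at 0.192, are all on chromosome 6. For *OsMADS18* they were LOC4340075 at 0.0731, LOC4348463 at 0.103 and LOC4333524 at 0.116. For *OsMADS1* they were LOC4346229, which the annotation names as the heat shock factor gene *HSFB2B*, at 0.143, LOC4325129 at 0.164 and LOC9267997 at 0.489. Within *MADS14*, the probe sets of the same source sequence were at 0.164 from each other and at 0.914 and 1.02 from Os.2348.2.S1_x_at.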

How the data were processed

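Per the labels, the authors ran MAS 5.0, and the deposited table gives each probe set's linear signal intensity on the 4 arrays, 1 array per group. No source used here states the software's version or target value. The mean after trimming was 500 on every array, and 24026 to 24717 probe sets reached 100. No further scaling was applied. Of 57381 probe sets, 187 controls were removed. The number of arrays limits the precision.

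Folds were log2 of signal + 1 and were not tested. Log2(signal + 1) was fitted with genotype and day length in limma 3.58.1 under R 4.3.3 (lmFit, eBayes with trend, prior degrees of freedom 8.29), for probe sets that reached 100 on an array. Benjamini-Hochberg adjustment covered all of them, at a threshold of 0.05. An interaction leaves no residual degree of freedom. The code was tested on simulated data. The spread of a fold is the standard deviation of SD minus LD genotype folds over the square root of 2, within ranges of mean signal, and holds real differences too. Bounds and counts above 2-fold raised signals under 100 to 100.

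Names came from a platform table and the RefSeq annotation of assembly ASM3414082v1, used for names, chromosomes and order, with 22436 probe sets given to 1 gene. Named were all probe sets of the 5 genes and, from each list, the gene of highest mean signal, those with the largest differences and those that passed, with 3 genes nearest in pattern. LOC4340178, LOC4340183, LOC4343849, *MADS50* and *MADS56* were named after their values were seen. Genes and lists were chosen with earlier results of these data known. Of the listed genes 31 were not analysed here, *Ehd1* and *Ghd7* among them, and planned comparisons of promoters and proteins were not made. Alternatives were adding 32, no filter, a filter at 500, quantile normalization, scaling to the median of bright probe sets, 1 term alone, leaving out each array, and a robust prior variance. Tables used pandas 2.3.3, numpy 2.4.6 and Python 3.11.15.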

Additional observations from a re-analysis of the deposited data

Results flagged for a closer look

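On 2 probe sets of *MADS15* the folds of both groups ran in opposite directions, a difference that was not tested. On Os.57543.1.S1_at, whose signals stayed at or under 19.7, the log2 fold of *hd1–3* over wild type was -0.59 under SD and 3.07 under LD condition, and that of LD over SD was -1.96 in wild type and 1.71 in *hd1–3*. On Os.12750.1.S1_a_at, at or under 38.7, the log2 fold of LD over SD was 0.63 in wild type and -0.45 in *hd1–3*. Both lie in the range of signal where folds had a spread of 1.61.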

How the results depend on the processing

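The labels give no replicate numbers to pair arrays by, and the main fit compares genotypes within day lengths. Of 583 probe sets that passed for genotype, a filter at 500 left 327, no day length term 53, and leaving out 1 array 48 to 84. For day length, 3831 became 1298 with no genotype term and 196 to 597 with 1 array left out. Fits without an array keep 1 term and assume that a lone array varies like the others. In each fit that gives a value, the genotype difference of the 6 probe sets tested kept its direction. With 32 added, the differences of *Hd3a* were 3.07 for genotype and -1.90 for day length, and that of *OsMADS1* was 1.99 for genotype (adjusted p = 0.0175), with the same calls. Quantile normalization gave *Hd3a* 4.40 (limma adjusted p = 0.0632) and *OsMADS18* 0.70 (0.0678) for genotype, and *Hd3a* -3.28 (0.0564) for day length. The filter at 500 kept the differences of *Hd3a* (4.43), Os.2348.2.S1_x_at of *MADS14* (1.41) and *OsMADS18* (0.70), with adjusted p of 0.115, 0.0878 and 0.0775, and that of *Hd3a* for day length (-3.19), with 0.0772; *OsMADS1* is dimmer than this filter. With genotype as the only term the same differences, and 2.71 for *OsMADS1*, had adjusted p of 1.0, 0.426, 1.0 and 0.644, and with day length alone *Hd3a* had 0.449. The robust prior, chosen after seeing the data, gave *Hd3a* 0.669 and 0.531 for genotype and day length. The cause was not tested.

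Leaving out 1 array, genotype differences ran from 1.58 to 7.28 for *Hd3a*, 1.15 to 1.67 for Os.2348.2.S1_x_at, 0.44 to 0.97 for *OsMADS18* and 1.87 to 3.54 for *OsMADS1*. Day length differences changed sign, running from -6.66 to 0.29 for *Hd3a*, -1.14 to 0.45, -2.27 to 0.20 and -2.09 to 0.25 for Os.2348.2.S1_x_at, Os.2348.1.S1_at and Os.2348.1.S1_a_at, -0.77 to 0.15 for *OsMADS18*, -2.68 to 0.70 for *OsMADS1*, -0.015 to 0.37 for *GF14G* and -0.049 to 0.28 for *MADS47*. *MADS47* was also at -0.0034 for day length after quantile normalization. The day length fits with an array left out have no genotype term, so genotype is mixed into these differences. Within each genotype, all 6 tested probe sets of the 5 genes were lower under LD. Of the 44 folds of the 11 probe sets, 6 moved by more than the spread with 32 added, 14 with the floor of 100, and 0 under either other scaling. Os.2348.1.S1_at lost its genotype call with the filter at 500 (adjusted p = 0.114) and with genotype as the only term (0.708), and its day length call with no filter (adjusted p = 0.0772), the filter at 500 (0.201), day length as the only term (0.579) and the robust prior (0.0523).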
